A study of Bos taurus with 16 samples.

Results

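The genes described are those of retinoic acid synthesis, binding and breakdown: RDH10, DHRS3, ALDH1A1, ALDH1A2, ALDH1A3, CRABP1, CRABP2, CYP26A1, CYP26B1 and RBP4. They were taken by an exact match of the gene name, and all 10 were found once in each of the 3 deposited tables, which list 38959, 37429 and 28303 genes. mRNA was sequenced in 16 wild-type bovine libraries, 12 from single in vitro fertilised blastocysts and 4 from bovine embryonic stem cells (bESCs). The question was what LY2955303 (LY), an inhibitor selective for retinoic acid receptor gamma, does to them. The first blastocyst table set 3 embryos cultured with 10 µM LY (LY10), started after cleavage to the 2-cell stage, against 3 embryos in the DMSO vehicle (DMSO). In the second, 2 embryos had LY from the 2-cell stage (cell2_LY), 2 had it from the 16-cell stage (cell16_LY), and 2 were the control labelled LY2955303_DMSO, taken here as the vehicle (LY_DMSO). The labels give no LY concentration for the second table or for the stem cells. In the third, 2 bESC libraries with LY (bESC_LY) stood against 2 in tifx, the stem cell medium (bESC_tifx). For bESCs the paper states 10 µM LY for 3 days and a DMSO control, while the labels name only the medium. Whether bESC_tifx held DMSO is therefore not known here. The oocytes came from slaughterhouse ovaries, each blastocyst library was 1 embryo, and the bESCs grew on inactivated mouse embryonic fibroblasts. The labels do not say whether replicates came from separate fertilisation or culture runs, so the p-values measure the spread between these libraries only.

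Retinol reaches cells on the serum carrier RBP4. RDH10 oxidises it to retinal, DHRS3 reduces retinal back to retinol, and the retinaldehyde dehydrogenases ALDH1A1, ALDH1A2 and ALDH1A3 turn retinal into retinoic acid. CRABP1 and CRABP2 bind the acid inside the cell, CRABP2 handing it to the nuclear receptors, while the cytochromes CYP26A1 and CYP26B1 oxidise it for clearance. In many vertebrate tissues several of these genes, such as CYP26A1 and DHRS3, respond to retinoic acid themselves. The gene RARG, which codes for the receptor that LY is meant to block, had 0 to 3.71 normalised counts in the 12 blastocysts, 12 reads in all, and 996.8 to 1851.7 normalised counts in the 4 bESC libraries. The blastocyst and bESC tables were made with different library kits and gene models, and their part in this low count cannot be told apart from the cells.

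Reads on genes ran from 7905768 to 15137567 per library in the first table, from 11336091 to 17343140 in the second and from 29055323 to 31230432 in the stem cells. One library stood apart: on the first principal component of the first table, which held 50.7% of the variance, DMSO replicate 3 lay at 29.9, beside the LY10 embryos at 52.4 to 89.8 and away from the other DMSO embryos at -139.3 and -86.0. Results that rest on it are given with and without it. That library was singled out for lying beside the LY10 embryos, so leaving it out tends to widen group differences. Calls gained without it are therefore no independent support. Replicates of the second table also spread on its first component, which held 38.0% of the variance. The cell2_LY embryos lay at 102.1 and 32.3, the cell16_LY embryos at -29.7 and -5.0 and the LY_DMSO embryos at -10.9 and -88.9. LY_DMSO replicate 1 thus lay between the cell16_LY embryos. All 8 trophectoderm markers had reads in every blastocyst, with a summed level of 2598 to 9548 FPKM, while the 7 epiblast markers found in the tables summed to 1123 to 1238 FPKM in the bESCs. FPKM, fragments per kilobase of gene model scaled to library size, is the scale of every level below, and fold changes are differences of log2(normalised count + 1). Since each library held whole embryos or cultures, fewer cells of a type and less RNA per cell cannot be told apart.

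In the blastocysts ALDH1A3 had the highest mean level, 10.9 FPKM over the 12 embryos, with a range of 1.61 to 18.1. RDH10 followed at a mean of 5.82 FPKM, CRABP1 at 5.61 and DHRS3 at 4.56. CRABP2 had a mean of 3.44 FPKM, RBP4 of 2.21 and ALDH1A1 of 1.09. These 7 genes were the ones abundant enough to test in both blastocyst tables, and the ranges of all neighbours in the order overlapped. CYP26A1, CYP26B1 and ALDH1A2 were close to absent, with means of 0.138, 0.0490 and 0.0175 FPKM. The CRABP2 level rests on a gene model of only 430 bases in the blastocyst tables, shorter than the 1990 bases used in the stem cell table. The plot of levels by embryo shows how far the order shifts between single blastocysts.

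**Figure D1:**
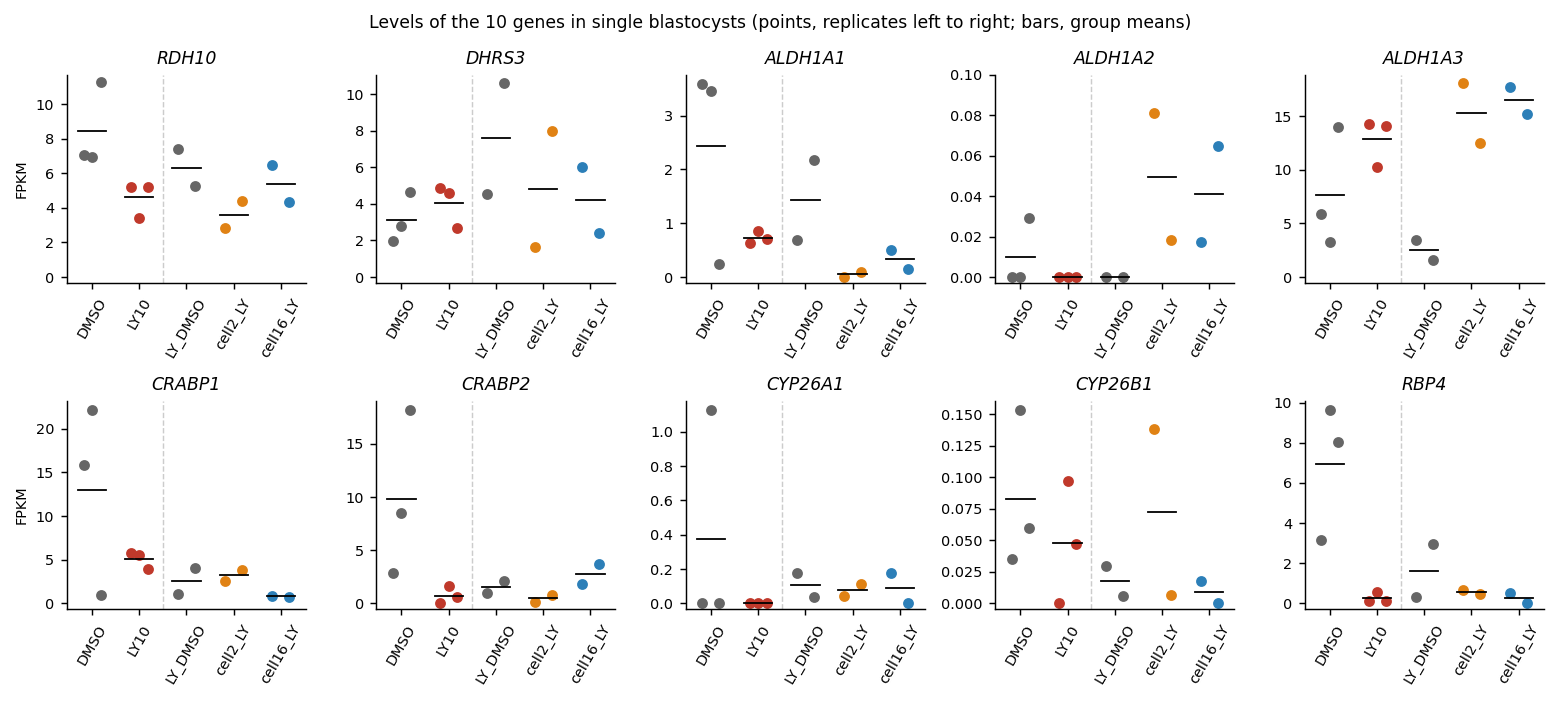
Level in FPKM (vertical axis, a linear scale of its own for each gene) of the 10 genes in the 12 blastocysts, one point per embryo and a bar at each group mean, with the first table left of the dashed line and the second right of it. ALDH1A3 lay at 10.3 FPKM or above in all 7 LY embryos, while CYP26A1, CYP26B1 and ALDH1A2 stayed below 0.2 FPKM except for CYP26A1 in DMSO replicate 2 at 1.12.

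Against the study's threshold, an unadjusted p under 0.05 with an absolute log2 fold change above 1, RBP4 and CRABP2 were lower in LY10 than in DMSO and no member was higher. That is 2 of 7 members tested, where 8.51% of the 14249 genes tested were called lower and 6.2% higher. From the 2-cell stage in the second table ALDH1A3 was higher and ALDH1A1 lower than in LY_DMSO, 1 member in each direction against 8.71% and 8.34% of 14529 genes. From the 16-cell stage ALDH1A3 alone was called, higher, against 3.25% of genes called higher and 1.97% lower. Both of these comparisons use the same 2 control embryos. With cell16_LY set against cell2_LY, CRABP1 alone was called, lower in cell16_LY, against 5.77% of genes called lower and 5.58% higher.

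With all libraries in the fit and no replicate block or sample weights, no member passed an adjusted p of 0.05 in any comparison. The p came from limma, with the Benjamini-Hochberg adjustment over all genes tested. Without DMSO replicate 3, ALDH1A1, ALDH1A3, CRABP1 and RBP4 passed that adjusted p in LY10, among 1763 of all 14249 genes tested. With all libraries, the share of all genes that passed was 0.014% in LY10 and 0.0138% in cell2_LY. It was 0% in cell16_LY, between the LY starts and in the bESCs. At an unadjusted p under 0.05 by limma the members numbered 2, 2, 1, 1 and 0 of 7 in that order of comparisons. The shares of all genes there were 22.93%, 24.62%, 7.62%, 17.87% and 0.1%. Voom weighting in limma gave 0 members at the adjusted threshold in each. Groups did not overlap for 3 of 7 members in LY10 against DMSO, where 28.1% of all genes did not overlap. Against LY_DMSO, 4 of 7 members did not overlap in cell2_LY (53.7% of all genes) and 3 of 7 in cell16_LY (42.9%). For the LY starts the count was 3 of 7 (54.5%). The plot of fold changes with their intervals shows that most intervals of the members were wider than 2 log2 units.

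**Figure D2:**
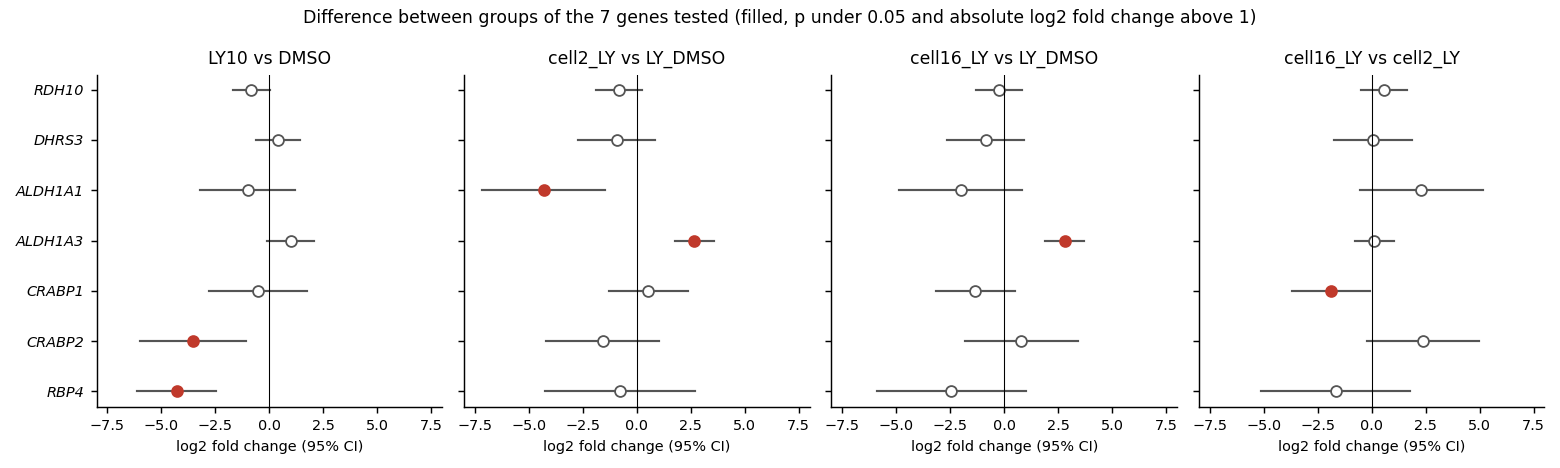
Log2 fold change (horizontal axis) with its 95% confidence interval for the 7 members tested, in the 4 comparisons between blastocyst groups; filled points passed an unadjusted p of 0.05 and an absolute log2 fold change of 1. Only ALDH1A3 was called in the same direction for both LY starts of the second table, at 2.67 and 2.80, and these share their controls.

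RDH10, the retinol dehydrogenase that supplies retinal (chromosome 14, 36628596 to 36655309, plus strand), was measured in every blastocyst. Positions are those of the whole gene in the blastocyst tables, which equal RefSeq ARS-UCD2.0 for all 10 members. DMSO embryos 1 to 3 had 7.06, 6.96 and 11.3 FPKM, and LY10 embryos 1 to 3 had 5.21, 3.43 and 5.23 FPKM. Every LY10 embryo lay below every DMSO embryo, but the log2 fold change of -0.84 (95% interval -1.71 to 0.02) did not pass the threshold (adjusted p = 0.226 by limma). LY_DMSO embryos of the second table had 7.38 and 5.26 FPKM, the cell2_LY embryos 2.81 and 4.38 FPKM and the cell16_LY embryos 6.47 and 4.35 FPKM. The cell2_LY embryos lay below both controls with a log2 fold change of -0.82 (interval -1.89 to 0.25, adjusted p = 0.308), while the cell16_LY embryos overlapped them at -0.23 (interval -1.30 to 0.84).

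DHRS3, which runs the same step backwards (chromosome 16, 41109685 to 41160245, plus strand), varied as much within groups as between them. DMSO embryos had 1.94, 2.81 and 4.63 FPKM and LY10 embryos 4.84, 4.58 and 2.65 FPKM. The LY_DMSO embryos stood at 4.54 and 10.6 FPKM, those of cell2_LY at 1.63 and 8.0 FPKM and those of cell16_LY at 6.01 and 2.41 FPKM. All groups overlapped, and the log2 fold changes were 0.40 (interval -0.62 to 1.42) in LY10, -0.93 (interval -2.72 to 0.86) in cell2_LY and -0.86 (interval -2.65 to 0.93) in cell16_LY.

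ALDH1A3 (chromosome 21, 5628648 to 5670915, minus strand) made up most of the retinaldehyde dehydrogenase transcript in LY embryos. It was at 3.43 and 1.61 FPKM in the LY_DMSO embryos of the second table. The cell2_LY embryos had 18.1 and 12.5 FPKM, and the cell16_LY embryos 17.8 and 15.2 FPKM. Every LY embryo thus exceeded both controls by a wide margin. The level was 6.36-fold higher in cell2_LY (log2 fold change 2.67, standard error 0.40, interval 1.75 to 3.59, adjusted p = 0.0711 by limma). It was 6.94-fold higher in cell16_LY (2.80, standard error 0.40, interval 1.87 to 3.72, adjusted p = 0.187). The cell16_LY and cell2_LY embryos differed by 0.13 on the log2 scale (interval -0.79 to 1.05, adjusted p = 0.888). The summed level of the 8 trophectoderm markers was also higher in the LY embryos, at 4997 to 7484 FPKM in cell2_LY and 5049 to 5075 FPKM in cell16_LY against 3940 to 4752 FPKM in LY_DMSO, with none of the markers at 0 in any embryo. Of these 8, CDX2, GATA2 and ELF3 were called higher in cell2_LY and none was called in cell16_LY. All 8 had a log2 fold change above 0 in both. KRT8 and KRT18 had most of the reads, with means of 79129 and 30166 normalised counts in LY_DMSO against 10.2 for CDX2. Neither was called, at log2 fold changes of 0.32 and 0.79 in cell2_LY and 0.28 and 0.06 in cell16_LY. Of the 6 hypoblast markers tested, PDGFRA alone was called, lower in cell2_LY (log2 fold change -2.01) and not in cell16_LY (-1.08). In cell2_LY 4 of the 6 had a log2 fold change above 0 and 2 below, and in cell16_LY 2 above and 4 below. The 8 hypoblast markers summed to 95.2 to 128 FPKM in LY_DMSO, 110 to 118 FPKM in cell2_LY and 56.5 to 94.7 FPKM in cell16_LY. Cumulus cells were stripped enzymatically after fertilisation. The 8 cumulus markers summed to 9.13 to 20.2 FPKM in LY_DMSO, 17.5 to 39.2 FPKM in cell2_LY and 22.7 to 89.3 FPKM in cell16_LY. TNFAIP6 was at 0 in all 4 LY embryos. Of the 3 tested, STAR was called higher in cell2_LY and CYP11A1 in cell16_LY, and FSHR was not called (0.59 and -0.34). CYP11A1 had 108 and 478 normalised counts in LY_DMSO, 890 and 309 in cell2_LY and 2378 and 555 in cell16_LY. The sum therefore did not reflect all 8 markers alike. The part of trophectoderm, hypoblast or cumulus cells in the ALDH1A3 difference was not tested.

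In the first table the ALDH1A3 level was 5.86, 3.24 and 14.0 FPKM in DMSO embryos 1 to 3 and 14.2, 10.3 and 14.1 FPKM in the LY10 embryos. DMSO replicate 3 sat among the LY10 embryos and the other controls lay below all of them. With the 3 controls the log2 fold change was 0.98 (interval -0.11 to 2.08, adjusted p = 0.260 by limma), short of the threshold. Without DMSO replicate 3 it was 1.54 and passed it.

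ALDH1A1 (chromosome 8, 49053228 to 49106706, minus strand), the other dehydrogenase with appreciable reads, ran the opposite way. DMSO embryos 1 and 2 had 3.58 and 3.45 FPKM, DMSO replicate 3 had 0.250 FPKM, and the LY10 embryos had 0.623, 0.858 and 0.710 FPKM. The groups overlapped only through DMSO replicate 3: the log2 fold change was -1.01 with it (interval -3.20 to 1.17, adjusted p = 0.550 by limma) and -2.21 without it, which passed the threshold. The second table gave 0.680 and 2.18 FPKM in LY_DMSO, 0 and 0.0944 FPKM in cell2_LY, and 0.504 and 0.149 FPKM in cell16_LY. ALDH1A1 was called lower in cell2_LY (log2 fold change -4.31, interval -7.16 to -1.46, adjusted p = 0.102 by limma), from 97 control reads against 3. Without LY_DMSO replicate 2 the value was -3.49 and missed the threshold. Both cell16_LY embryos also lay below both controls, at -2.01 (interval -4.86 to 0.84, adjusted p = 0.747), which was not called.

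ALDH1A2, the main embryonic retinaldehyde dehydrogenase of later stages in vertebrates (chromosome 10, 52215057 to 52340290, plus strand), had 10 reads in all 12 blastocysts. It had 1 read in the 3 DMSO embryos, 0 in LY10, 0 in LY_DMSO, 5 in cell2_LY and 4 in cell16_LY. With 3 reads over LY_DMSO as its floor, the level was 1.87-fold that floor in cell2_LY and 1.49-fold in cell16_LY. The 5 and 4 reads are taken as exact there, so these values are not lower bounds. Without a minimum count neither difference was called (adjusted p = 0.361 and adjusted p = 0.852 by limma). Summed over the family, ALDH1A3 gave 92.3% to 99.6% of the ALDH1A level in the 7 LY embryos. In the controls its share was 62.1%, 48.4% and 98.0% in DMSO embryos 1 to 3 and 83.5% and 42.4% in the LY_DMSO embryos. The summed ALDH1A level was 12.6 to 18.3 FPKM in the 4 LY embryos of the second table against 3.79 and 4.11 FPKM in its controls. In the first table the sums overlapped, at 6.69 to 14.3 FPKM in DMSO and 11.1 to 14.9 FPKM in LY10, and ALDH1A1 held 4.19% to 7.70% of the sum in LY10 against 1.75% in DMSO replicate 3. The stacked bars show the sum and its parts in each embryo.

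**Figure D3:**
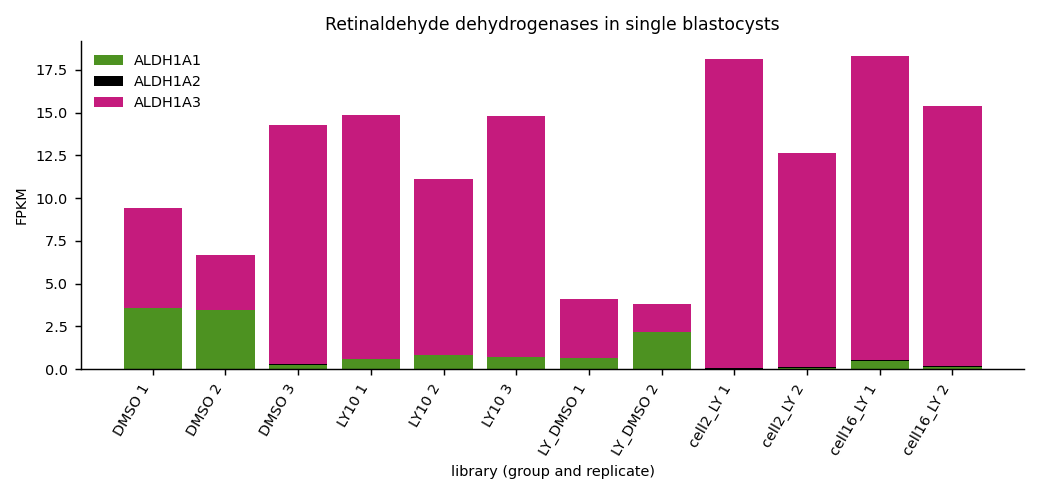
Level in FPKM (vertical axis, stacked from 0) of ALDH1A1, ALDH1A2 and ALDH1A3 in each of the 12 blastocysts, labelled by group and replicate. ALDH1A3 makes up 42.4% to 98.0% of the bar in the 5 control embryos and 92.3% to 99.6% in the 7 LY embryos, and DMSO replicate 3 resembles the LY bars.

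CRABP1, a cytosolic binder of retinoic acid (chromosome 21, 30733397 to 30740592, plus strand), ranged from 0.742 to 22.1 FPKM over the blastocysts. DMSO embryos 1 to 3 had 15.9, 22.1 and 0.996 FPKM, so that the first 2 lay above and the third below the LY10 embryos at 5.79, 5.49 and 3.93 FPKM. The log2 fold change was -0.52 with all controls (interval -2.79 to 1.76, adjusted p = 0.783 by limma) and -1.88, past the threshold, without DMSO replicate 3. Without DMSO replicate 1 or replicate 2 the sign turned, to 0.047 and 0.286. CRABP1 in the second table had 1.11 and 4.05 FPKM in LY_DMSO, 2.55 and 3.83 FPKM in cell2_LY, and 0.854 and 0.742 FPKM in cell16_LY. The cell16_LY embryos were the lowest, below both cell2_LY embryos (log2 fold change -1.88, interval -3.71 to -0.06, adjusted p = 0.268 by limma). That call rested on every library of those groups, since leaving out any 1 of the 4 lost it (-2.17 to -1.59), and on 22 reads against 88.

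CRABP2 (chromosome 3, 14125444 to 14130428, plus strand) was highest in the DMSO embryos. They had 2.88, 8.47 and 18.2 FPKM, and the LY10 embryos had 0, 1.61 and 0.565 FPKM. No LY10 embryo reached the lowest control, and the level was 11.7-fold lower (log2 fold change -3.54, standard error 1.09, interval -6.01 to -1.08, adjusted p = 0.114 by limma). The value was -2.93 without DMSO replicate 3, still past the threshold. It rests on 13 LY10 reads against 132, and with voom weights (-3.34) it was no longer called. The LY_DMSO embryos had 0.989 and 2.11 FPKM, cell2_LY embryos 0.167 and 0.752 FPKM, and cell16_LY embryos 1.84 and 3.74 FPKM. Both cell2_LY embryos lay below both controls without a call (-1.58, interval -4.19 to 1.03, adjusted p = 0.417), and the cell16_LY embryos overlapped the controls (0.79, interval -1.82 to 3.40). CRABP2 was higher in cell16_LY than in cell2_LY by 2.37 log2 units (interval -0.24 to 4.98, adjusted p = 0.312), opposite in sign to CRABP1, and this was not called. CRABP1 made up 52.9% to 65.7% of the summed CRABP level in LY_DMSO, 83.6% to 93.9% in cell2_LY and 16.6% to 31.7% in cell16_LY. In the first table its share was at least 77.3% in every LY10 embryo and 84.6%, 72.3% and 5.20% in DMSO embryos 1 to 3.

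RBP4, the retinol carrier (chromosome 26, 14896208 to 14902404, minus strand), differed most in the first table. The DMSO embryos had 3.15, 9.61 and 8.03 FPKM. The LY10 embryos had 0.132, 0.583 and 0.125 FPKM, all far below the lowest control. The level was 19.5-fold lower (log2 fold change -4.29, standard error 0.80, interval -6.11 to -2.46, adjusted p = 0.0783 by limma), which ranked 79th by p among the 14249 genes. Leaving out each library in turn gave -4.82 to -3.98, and -4.11 without DMSO replicate 3, each past the threshold. The level in the second table was 0.313 and 2.93 FPKM in LY_DMSO, 0.663 and 0.466 FPKM in cell2_LY, and 0.502 and 0 FPKM in cell16_LY. These controls lay below the lowest DMSO embryo of the first table, in a table normalised separately, and 1 of them fell among the LY embryos. The log2 fold changes were -0.77 (interval -4.24 to 2.69) in cell2_LY and -2.45 (interval -5.91 to 1.02) in cell16_LY.

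Among the marker lists of the first table, the fibroblast sum was lower in LY10, as RBP4 and CRABP2 were. The 8 fibroblast markers summed to 24.5, 24.4 and 91.1 FPKM in DMSO embryos 1 to 3 and to 6.10, 8.60 and 11.7 FPKM in LY10. POSTN, COL3A1 and PDGFRB were at 0 in LY10 replicates 1 and 3, and POSTN was at 0 in DMSO replicates 1 and 2. Of the 5 tested, COL1A2 and DCN were called lower and none higher. The 7 epiblast markers summed to 173 to 280 FPKM in DMSO and 368 to 741 FPKM in LY10, with POU5F1 called higher. The 8 hypoblast markers summed to 74.5 to 114 FPKM in DMSO and 75.0 to 114 FPKM in LY10, where PDGFRA was called higher (log2 fold change 3.74). Of the 6 hypoblast markers tested, 3 had a log2 fold change above 0 and 3 below. Of the 8 trophectoderm markers, 4 had a log2 fold change above 0 and 4 below, and ELF3 was called lower (-1.52). Whether fibroblasts were present in these embryos was not tested. Nor was the part of any of these cell types in the RBP4 and CRABP2 differences. Fibroblast sums in the second table were 11.8 and 17.6 FPKM in LY_DMSO, 10.9 and 15.6 FPKM in cell2_LY and 11.1 and 9.72 FPKM in cell16_LY.

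Leaving out DMSO replicate 3 changed the count of members called in the first table, which no other library did. The number past the threshold went from 2 to 5 of 7, with ALDH1A1 and CRABP1 lower and ALDH1A3 higher beside RBP4 and CRABP2. Over all genes, calls went from 2097 to 3336 and those at an adjusted p under 0.05 from 2 to 1763. Of the members, RBP4 (adjusted p = 0.0326), CRABP1 (adjusted p = 0.0328), ALDH1A3 (adjusted p = 0.0360) and ALDH1A1 (adjusted p = 0.0374) were among those, and CRABP2 was not (adjusted p = 0.118, limma). Leaving out any other library of that table kept the 2 calls. Because DMSO replicate 3 was picked for its likeness to the LY10 embryos, the calls gained without it are no independent support. The plot with and without that library shows the 3 genes that crossed the threshold.

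**Figure D4:**
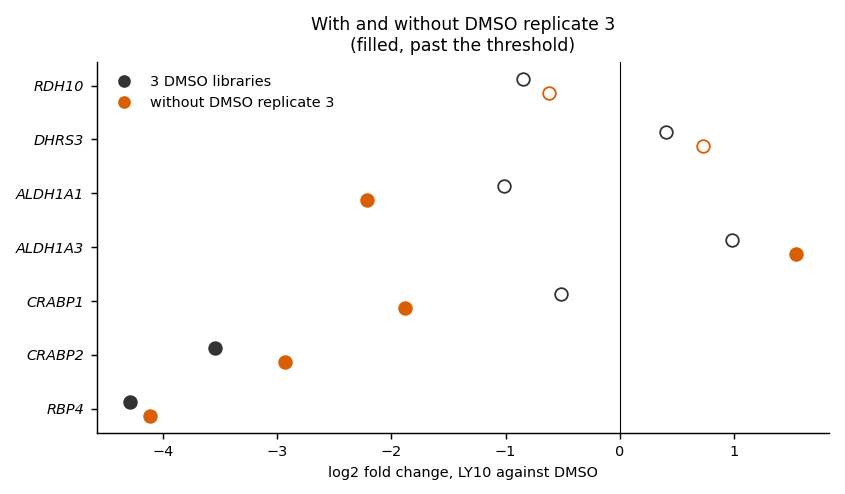
Log2 fold change of LY10 against DMSO (horizontal axis) for the 7 members tested, with all 3 DMSO libraries (dark) and without DMSO replicate 3 (orange); filled points passed an unadjusted p of 0.05 and an absolute log2 fold change of 1. ALDH1A1, ALDH1A3 and CRABP1 are filled only without it, at -2.21, 1.54 and -1.88.

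The breakdown enzymes gave almost no signal in blastocysts. CYP26A1 (chromosome 26, 14416061 to 14419635, plus strand) had 36 reads over the 12 embryos, 21 of them in DMSO replicate 2, which stood at 1.12 FPKM. It was at 0 in the other 2 DMSO embryos and in all 3 LY10 embryos. It had 6 reads in LY_DMSO, 4 in cell2_LY and 5 in cell16_LY. CYP26B1 (chromosome 11, 12371170 to 12396520, plus strand) had 78 reads over the 12 embryos on a gene model of 10375 bases, with levels of 0 to 0.153 FPKM. Against a floor of 3 reads over the LY10 group, CYP26A1 was 6.54-fold lower there. That value rests on DMSO replicate 2 alone and takes its 21 reads as exact. Neither gene reached the minimum mean of 10 normalised counts, and without a minimum neither was called in any blastocyst comparison.

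The other genes of retinoid handling were read from a list of 30, of which 29 had a single row in the blastocyst tables. In LY10 against DMSO 12 of them were tested, 4 were called lower and 1 higher, and their median log2 fold change was -0.43 against -0.05 over all genes. DHRS9, a retinol dehydrogenase, had 210, 154 and 31.7 normalised counts in DMSO and 0, 4.02 and 10.4 in LY10 (log2 fold change -4.73, adjusted p = 0.0786 by limma). SDR16C5, another retinol dehydrogenase, had 49.7, 126 and 14.2 normalised counts in DMSO and 0, 0 and 3.88 in LY10 (log2 fold change -4.77, adjusted p = 0.0818). Both were lower in all LY10 embryos than in any DMSO embryo, as RBP4 and CRABP2 were. FABP5, a carrier of fatty acids and retinoic acid, was also called lower (-1.60), and RDH11, a retinal reductase, was called higher (1.05).

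Of that list, 11 genes were tested in each comparison of the second table. In cell16_LY against LY_DMSO 1 was called lower and none higher, with a median of 0.38 against -0.01 over all genes. The 3 with the smallest p were RDH11, RDH12 and DHRS4, of which RDH12, a photoreceptor-type retinal reductase, was called (-1.66, adjusted p = 0.620), and RDH11 and DHRS4 were at -0.77 and 1.70. In cell2_LY 1 was called higher and 1 lower, with a median of 0.10: DGAT1, which esterifies retinol among other alcohols, at 1.11 (adjusted p = 0.161), and RDH12 at -1.63 (adjusted p = 0.171). RDH11 had a log2 fold change of -0.70 there. BCO2, a carotenoid cleavage enzyme, was called higher in cell16_LY than in cell2_LY (1.21, adjusted p = 0.261) and none lower. RDH14 at 0.62 and DGAT1 at -0.81 came next by p, and the median was 0.40.

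The receptors were read from a list of 6 and the genes inducible by retinoic acid from a list of 13, with RARB in both. In LY10 against DMSO 2 receptors were tested and none was called, RARB being at -0.56 and RXRB at -0.42. In cell2_LY RARB, a classical retinoic acid target, had 21.8 and 39.5 normalised counts against 195 and 307 in LY_DMSO (log2 fold change -3.01, adjusted p = 0.0711 by limma). The cell16_LY embryos had 162 and 128 normalised counts of RARB, above cell2_LY by 2.26 log2 units (adjusted p = 0.191), and were not called against the controls (-0.76, adjusted p = 0.751). RXRB was called higher in cell2_LY (1.73, adjusted p = 0.113, with RXRA at 1.67 not called), making 1 of 4 tested receptors higher and 1 lower, and in cell16_LY none was called, with RXRA at -0.70 and RXRB at 0.37. Against cell2_LY, RXRA and RXRB were called lower in cell16_LY, at -2.37 and -1.36, and RARB higher.

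Of the inducible genes 6 were tested in each blastocyst comparison. In LY10 RARRES1 alone was called, lower (-1.24, adjusted p = 0.196), with HOXA4 at -1.59 and HOXB4 at -1.11 not called and a list median of -0.84. In cell2_LY RARB was called lower and HOXB4, a homeobox factor, higher (1.97, adjusted p = 0.170), with MEIS2 at -2.55 not called and a median of -0.57. In cell16_LY against LY_DMSO none was called, RARRES1 being at 0.89 and HOXB4 at 0.82, with a median of 0.33. RARB and RARRES1 (1.46, adjusted p = 0.247) were called higher in cell16_LY than in cell2_LY, HOXB4 was at -1.15, and the median was 1.13.

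For the 3 members with the highest mean level, the genes with the most similar pattern over the 12 blastocysts were sought among 8582 named genes for ALDH1A3 and RDH10 and 8583 for CRABP1, each centred on its table mean. For ALDH1A3 they were PRPH (Pearson r = 0.968), PFKL (r = 0.952) and MAP2K5 (r = 0.945). For RDH10 they were AK6 (r = 0.944), ATG5 (r = 0.926) and CALM2 (r = 0.921). CRABP1 was followed by PDCD7 (r = 0.931), DQX1 (r = 0.887) and MAST2 (r = 0.865). The 12 points share their libraries and the treatment groups, so these values are descriptions.

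The bESCs had another makeup of these genes. RBP4 was the highest, at 91.7 and 87.5 FPKM in bESC_tifx replicates 2 and 3 and 96.4 and 86.8 FPKM in bESC_LY replicates 2 and 3. CRABP1 had 48.7 and 31.0 FPKM in bESC_tifx and 50.1 and 35.7 FPKM in bESC_LY. CRABP2 had 50.4 and 39.6 FPKM in bESC_tifx and 43.7 and 30.7 FPKM in bESC_LY. Next came RDH10 with 5.48 and 13.4 FPKM in bESC_tifx and 5.39 and 12.9 FPKM in bESC_LY. For CRABP1, CRABP2 and RDH10 the libraries numbered 2 and 3 differed more than the LY and tifx libraries of the same number did.

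CYP26B1, near 0 in blastocysts, had 7.99 and 2.93 FPKM in bESC_tifx and 7.07 and 2.30 FPKM in bESC_LY. ALDH1A1 was at 1.02 and 2.76 FPKM in bESC_tifx and 1.03 and 3.05 FPKM in bESC_LY, and made up 86.0% to 96.5% of the summed ALDH1A level, where ALDH1A3 gave 2.35% to 9.82%. DHRS3 had 0.547 and 0.312 FPKM in bESC_tifx and 0.217 and 0.197 FPKM in bESC_LY. So the dehydrogenase with most transcript was ALDH1A3 in the blastocysts with LY and ALDH1A1 in the bESCs. In the control blastocysts ALDH1A3 made up 42.4% to 98.0% of the summed ALDH1A level. The blastocyst and bESC tables were made from different library kits and gene models, so these levels are set side by side only. The bESCs grew on a mouse feeder layer, but whether feeder RNA gave reads here, or had a part in the member levels, was not tested. The 8 fibroblast markers summed to 70.8 to 72.6 FPKM in the bESCs, with at most 2 at 0. The same markers summed to 91.1 FPKM in the blastocyst DMSO replicate 3, so the sum does not show feeder reads.

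None of the 7 members tested in the bESCs was called with LY (adjusted p of 0.999999 each by limma), where 0.0375% of 16012 genes were called higher and 0.0375% lower. DHRS3 alone did not overlap between groups, being lower with LY (log2 fold change -0.94, interval -2.56 to 0.67), beside 14.2% of all genes that did not overlap. The log2 fold change was 0.031 for RBP4 (interval -0.32 to 0.39), 0.13 for CRABP1 (interval -0.70 to 0.95) and -0.29 for CRABP2 (interval -0.94 to 0.36). CRABP2 was lower with LY at both replicate numbers, and with the number as a block its adjusted p was 0.0102 at the same fold change, below the fold threshold. The labels do not say that a number marks a shared culture. The log2 fold change was 0.078 for ALDH1A1 (interval -1.94 to 2.10), -0.038 for RDH10 (interval -1.71 to 1.63) and -0.26 for CYP26B1 (interval -2.24 to 1.71). CYP26A1 was under the minimum for a test, with no read in either bESC_tifx library and 10 reads in the bESC_LY libraries, at 0.0805 and 0.109 FPKM. Against a floor of 3 reads over the bESC_tifx group this is 3.37-fold higher, with the 10 reads taken as exact. Without a minimum count it passed the threshold of the calls, with a log2 fold change of 2.57 (adjusted p = 0.999999 by limma). ALDH1A2 with 10 and 11 reads and ALDH1A3 with 23 and 17 reads, in bESC_tifx and bESC_LY, were also under the minimum.

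**Figure D5:**
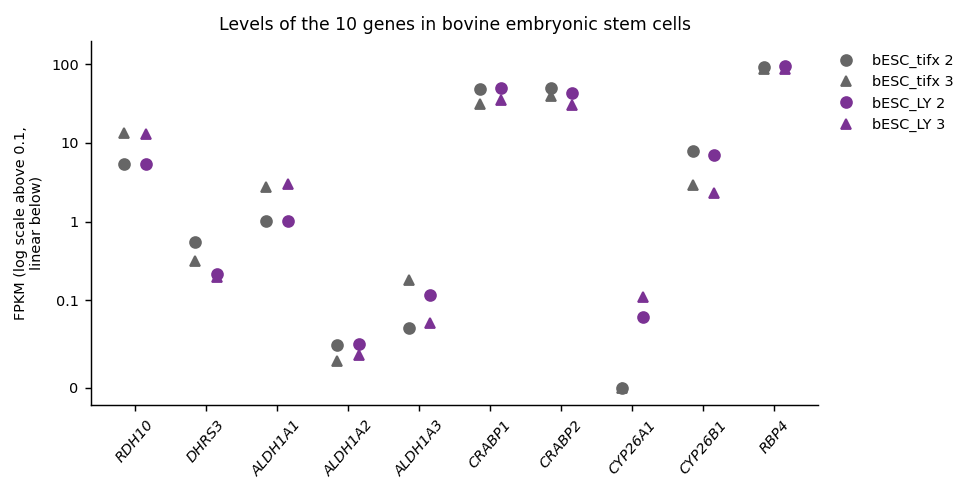
Level in FPKM (vertical axis, logarithmic above 0.1 and linear below) of the 10 genes in the 4 bESC libraries, with circles for replicate 2 and triangles for replicate 3. RBP4 lies at 86.8 to 96.4 FPKM in all 4, and for RDH10, ALDH1A1 and CYP26B1 the points pair by replicate number rather than by treatment.

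None of the 17 other retinoid genes, 6 receptors and 13 inducible genes tested in the bESCs was called, and the list medians were -0.05, -0.05 and 0.05. Among the smallest p in each list were those of PNPLA4 (-0.95) and RBP7 (0.98), then RARG (-0.32), RXRG (-0.74) and RARB (0.34), and STRA6 (-0.23), STRA8 (0.48) and RARRES1 (0.27).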

How the data were processed

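The authors deposited FPKM values with gene lengths; their processing notes name HISAT2 2.0.5, StringTie 1.3.3b, featureCounts 1.5.0-p3 and, for the authors' own comparisons, DESeq2 1.20.0. The columns of the authors' fold changes and p-values were not used. The build is not given in the sources used here; the positions of all 10 members in the blastocyst tables equal RefSeq ARS-UCD2.0, and the stem cell table uses Ensembl gene models. The authors' FPKM times gene length gave whole reads for every gene to within 0.02 reads. From these, normalised counts were reads over the library size implied by the authors' FPKM, rescaled to the geometric mean of the table's library sizes. Genes with a mean of 10 or more were fitted as log2(normalised count + 1) with limma 3.58.1 (R 4.3.3, trended variance, the 3 groups of the second table in 1 fit), tested on simulated data. A call was an unadjusted p under 0.05 with an absolute log2 fold change above 1; 95% intervals come from the same fit. A group at 0 was given a floor of 3 reads over the group, which covers counting error in that group only. Named genes were the 10 members, the 3 with the smallest p in each list and the 3 most similar (mean of 50 or more) to the 3 most abundant members; the markers named with calls were added after their values were seen. The members and lists were chosen with earlier results of these data known. Sequences were not used here. One gene that the rule would name is counted in its list but not reported here. PNPLA4, with 2 rows in the blastocyst tables, was left out of their lists. Alternatives were pseudocounts of 0.5 and 5, no minimum or a mean of 50, median-ratio, quantile and total-read scaling, log2(FPKM + 1) over genes with a mean of at least 0.5 FPKM, voom, sample weights, the replicate block, a fit of the 2 compared groups alone, and every library omitted in turn.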

Additional observations from a re-analysis of the deposited data

Results flagged for a closer look

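CRABP1 differed between the LY starts: because cell16_LY and cell2_LY share the LY_DMSO controls, the difference of their effects is the difference of the 2 LY groups, -1.88 on the log2 scale (interval -3.71 to -0.06, adjusted p = 0.268 by limma). Its direction held under all 17 alternatives and the call was lost under 7 of them.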

How the results depend on the processing

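Of 585 values of single members under the alternatives, 542 kept their direction and side of the threshold, 9 lost a call, 11 gained one and 23 turned sign. RBP4 in LY10 and ALDH1A3 in both LY starts kept their calls under each alternative that tested them. With a mean of at least 50, which left 4 members in the first table and 3 in the second, the count past the threshold was 0 in LY10 against DMSO, 1 in cell2_LY and 0 between the LY starts. In LY10 it was 1 with voom weights and 4 with sample weights. Of cell16_LY against cell2_LY it was 0 with no filter, quantile normalization or voom, and 2 with log2(FPKM + 1). In the bESCs it was 1 with no filter, CYP26A1. Leaving out each library in turn gave 2 to 5 in LY10 (5 without DMSO replicate 3), 1 to 3 in cell16_LY (3 without LY_DMSO replicate 1), 1 to 3 in cell2_LY (1 without LY_DMSO replicate 2) and 0 to 2 between the LY starts (0 without cell2_LY replicate 1 or either cell16_LY replicate, 2 without cell2_LY replicate 2); the cause was not tested.

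Some values turned sign. Between the LY starts ALDH1A3 was -0.061 with quantile normalization and -0.087 with total reads, and DHRS3 was -0.14 with total reads. Leaving out single libraries moved CRABP1 in LY10 over -1.88 to 0.29, RDH10 in cell16_LY over -0.514 to 0.053, and in cell2_LY DHRS3 over -2.07 to 0.20, CRABP1 over -0.37 to 1.43 and RBP4 over -2.26 to 0.72. For cell16_LY against cell2_LY the ranges were -0.14 to 0.39 for ALDH1A3 and -1.07 to 1.21 for DHRS3. In the bESCs they were -0.70 to 0.85 for ALDH1A1, -1.07 to 0.55 for CYP26B1, -0.68 to 0.60 for RDH10, -0.20 to 0.45 for CRABP1 and -0.045 to 0.107 for RBP4.

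With a replicate block the members past the threshold numbered 2 in LY10, 1 in cell16_LY, 2 in cell2_LY, 1 between the LY starts and 0 in the bESCs, as without it. Deviations of same-numbered libraries correlated at -0.12, 0.17 and -0.10 in the first table and at -0.23 to 0.12 in the second. In the bESCs the correlation was 0.789, and the block moved calls over all genes from 12 to 146 and those at an adjusted p under 0.05 from 0 to 116, CRABP2 among them. At that adjusted p, RBP4 in LY10 passed with sample weights, and ALDH1A3 passed in cell16_LY with the block and in cell2_LY without LY_DMSO replicate 1 or cell2_LY replicate 2.

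Over all genes, calls ran from 1350 to 3336 in LY10 (2097 in the report), 350 to 1357 in cell16_LY (758), 1575 to 3402 in cell2_LY (2476), 817 to 2916 between the LY starts (1649) and 2 to 158 in the bESCs (12). The share of calls that were lower in LY10 was 57.8%, and 45.0% with quantile normalization. With total reads it went from 48.9% to 26.8% in cell2_LY and from 50.9% to 75.0% between the LY starts. With 13 to 132 reads behind CRABP2 and 3 to 97 behind ALDH1A1, depth limits the members at low level.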
